A study of Mus musculus with 9 samples.

Results

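The genes described here are the histone genes that were measured in polyadenylated RNA of the embryonic mouse cortex. They were chosen by name alone: a protein-coding gene was a member if its GENCODE M21 symbol began with Hist1h to Hist4h, H1f, H2af or H3f. No measured value entered that rule, although it was chosen with earlier results of these data known. It found 82 members among the 35498 genes of the tables, 67 with replication-dependent (Hist) symbols and 15 with the symbols of variant histones.

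The libraries came from whole cortical tissue of C57Bl/6 mouse embryos at E13.5, with 3 libraries in each of 3 groups. WT embryos were Smarca1 +/+; Cre -/-. Smarca1 KO embryos were Smarca1 -/-; Cre -/-. DKO embryos were Smarca1 -/-; Cre +/-, and the study names them as double knockouts of Smarca5 and Smarca1, the ATPases of the ISWI chromatin remodellers. Smarca1 KO and DKO embryos therefore share the loss of Smarca1. DKO against Smarca1 KO differs by Cre and Smarca5, and DKO against WT by Cre and both genes. The promoter that drives Cre, the Smarca5 allele of the WT and Smarca1 KO embryos, whether a library is 1 embryo, and the embryos' sex and litter were not stated. P-values then measure only the spread between these libraries, which may be technical.

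Replication-dependent histone genes are known for main transcripts that end without a poly(A) tail. Their transcripts end just after a conserved stem-loop, which is bound by the stem-loop binding protein (Slbp) and cut with the help of the U7 snRNP, and they are made in S phase to package newly copied DNA. Variant histone genes such as H3f3a, H3f3b and H2afz are transcribed through the cell cycle and make ordinary polyadenylated mRNA. In the developing cortex, dividing progenitors lie beside neurons that have left the cell cycle, and replacement histones such as the linker histone of H1f0 are known to accumulate in cells that have stopped dividing. A library made from poly(A) RNA thus reads ordinary polyadenylated mRNA. Of transcripts that are cut at a stem-loop it reads only what carries a tail or comes through the selection.

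The stem-loop is printed first because it is the sequence at which replication-dependent transcripts are cut, and how far an annotated transcript runs past it is described below. Each line below runs 5′ to 3′ on the transcript strand with U written as T, was read from the GENCODE M21 transcripts, and has the 16 bases that match the stem-loop in capitals. Hist1h2ap, Hist3h2ba, Hist3h2a, Hist1h1c and Hist1h4i are Hist genes to which the results return, and H2afx is the variant with a stem-loop.
Hist1h2ap: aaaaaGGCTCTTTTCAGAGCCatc
Hist3h2ba: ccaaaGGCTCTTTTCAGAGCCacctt
Hist3h2a: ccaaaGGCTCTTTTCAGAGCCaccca
Hist1h1c: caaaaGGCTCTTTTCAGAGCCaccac
Hist1h4i: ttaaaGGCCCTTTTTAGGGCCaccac
H2afx: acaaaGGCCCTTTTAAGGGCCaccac

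The searched motif was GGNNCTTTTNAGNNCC on the transcript strand, where N is any base. It was found in 45 of the 82 members, 44 Hist genes and H2afx, and in 78 of all 21725 protein-coding genes, or 0.36%. The form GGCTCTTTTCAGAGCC was the most frequent, in 26 of the 45 genes, followed by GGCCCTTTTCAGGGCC in 7 and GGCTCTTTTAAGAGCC in 6. The annotated transcripts did not all stop at the loop. Each gene was classed by its transcript with the most counts. Of the 67 Hist genes, 22 ended within 100 bases of the loop, 21 ran over 100 bases past it, and 24 held no match in that transcript, among them Hist1h2be, whose match lies in other transcripts. The transcripts of these 24 had a median annotated length of 408 bases, the shortest 312, against a median of 481 and 1249 in the first 2 classes. Whether a loop lies past their annotated end was not tested. A poly(A) hexamer, AATAAA or ATTAAA, stood within the last 60 bases of 15 Hist genes, 10 of them among the 21 that run past the loop. Hist3h2a continues for 1643 bases after its loop, Hist1h1c for 840 and Hist3h2ba for 169, each with AATAAA near its end, whereas Hist1h2ap stops 3 bases after its loop. H2afx, which encodes the H2A.X variant that is phosphorylated at DNA breaks, is annotated for 822 bases past its loop and ends with ATTAAA. How much of its RNA ends at the loop was not tested.

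Promoters are shown for 4 members because Hist1h1c and H3f3b were called in the comparisons below and Hist1h1d and Hist1h1e are the expressed paralogs nearest to Hist1h1c in sequence. The windows come from RefSeq on GRCm38.p6, run 5′ to 3′ towards the gene, and carry in capitals the CCAAT box (CCAAT), the TATA box (TATAAA) and the H1 box of linker histone promoters (AAACACA). Hist1h1c lies at chr13:23738677-23738786 (plus strand), Hist1h1d at chr13:23554902-23555011 (plus strand), Hist1h1e at chr13:23622579-23622688 (minus strand) and H3f3b at chr11:116024515-116024734 (minus strand).
Hist1h1c: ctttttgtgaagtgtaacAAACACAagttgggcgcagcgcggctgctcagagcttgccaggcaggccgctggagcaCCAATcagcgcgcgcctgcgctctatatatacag
Hist1h1d: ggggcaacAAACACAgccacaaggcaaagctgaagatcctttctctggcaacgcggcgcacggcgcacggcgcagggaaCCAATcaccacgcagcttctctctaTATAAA
Hist1h1e: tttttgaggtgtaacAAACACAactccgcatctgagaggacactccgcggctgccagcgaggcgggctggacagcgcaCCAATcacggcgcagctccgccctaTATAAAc
H3f3b: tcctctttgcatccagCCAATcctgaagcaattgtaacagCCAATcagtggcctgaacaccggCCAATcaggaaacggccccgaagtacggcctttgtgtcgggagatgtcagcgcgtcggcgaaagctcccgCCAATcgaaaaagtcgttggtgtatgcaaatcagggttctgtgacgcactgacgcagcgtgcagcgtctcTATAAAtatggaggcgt

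RefSeq promoters, from 250 bases before the start to 50 after it, matched 76 of the 82 members. Searched on both strands, CCAAT was found in 53 of 62 Hist promoters and 10 of 14 variant promoters, against 41.1% of the promoters of all 27025 genes. TATAAA was found in 35 of 62 Hist promoters, against 15.7% of all genes, and in 1 of 14 variant promoters, that of H3f3b. The AAACACA box was found in 9 of 62 Hist promoters, 5 of them among the 6 Hist1h1 promoters, in 1 of 14 variant promoters, that of H3f3a, and in 8.22% of all. In Hist1h1c it stood 112 bases before the start, in Hist1h1d 122 and in Hist1h1e 115, with a CCAAT box 54, 51 and 52 bases before the start. H3f3b held 4 CCAAT boxes, while H3f3a, the other gene for the same H3.3 protein, held 1 and no TATAAA. The H1f0 and H1fx windows held none of the 3 motifs. A match describes letters in the window and not a bound site.

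Each library gave between 27466046 and 46007527 estimated counts in genes. Smarca5 fell to 0.301 times its WT level in DKO (edgeR quasi-likelihood test, adjusted p = 2.05e-06), with 77.2 to 84.4 CPM in the DKO libraries against 262.0 to 270.7 in WT and 212.2 to 245.8 in Smarca1 KO. Smarca1 lay between 35.3 and 43.8 CPM in all 9 libraries, so its transcript level does not check the Smarca1 label. The cortex markers Emx1, Pax6, Eomes, Tbr1, Neurod2 and Dcx had counts in all 9 libraries, and Emx1 fell in DKO against WT (log2 fold change -0.62, adjusted p = 0.00335). Marker sums differed between libraries within groups: Smarca1 KO replicate 1 and DKO replicate 1 had the highest meninges marker sums (651.4 and 713.0 CPM against 294.0 to 575.7 in the others), and Smarca1 KO replicate 3 the lowest sum of 29 S phase and replication genes (2088.5 CPM against 2500.7 to 3144.0). The 8 microglia markers summed to 38.3 to 40.0 CPM in WT, 39.5 to 47.6 in Smarca1 KO and 51.6 to 66.2 in DKO; 3 of them rose in DKO against WT, 1 rose in DKO against Smarca1 KO, and none was at 0. The 9 blood markers summed to 1392.4 to 1869.7 CPM in WT, 1062.3 to 1619.7 in Smarca1 KO and 879.5 to 1454.4 in DKO. The part of these cells in the histone values was not tested. In whole tissue, fewer cells of a type and less RNA per cell cannot be told apart.

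Levels between genes are compared per length, in TPM, a level scaled for transcript length, over all 9 libraries. Histone genes took 0.406% to 0.49% of all gene counts. Of the 2 genes of the H3.3 histone, H3f3a led the variants at 2161.2 ± 67.6 TPM (SD, n = 9) and H3f3b stood at 1141.9 ± 164.0 TPM. H2afz, which encodes H2A.Z, an H2A variant found at promoters, stood at 1093.5 ± 98.0 TPM, so that its spread overlapped that of H3f3b. By group, H2afz lay above H3f3b in WT (1158.7 against 1030.4 TPM), near it in Smarca1 KO (1044.9 against 1037.0) and below it in DKO (1077.0 against 1358.4). Then came the linker histone H1f0 at 520.1 ± 68.5 TPM, the macroH2A gene H2afy at 443.8 ± 19.7 TPM and H1fx at 373.6 ± 48.4 TPM. H2afv, the other H2A.Z gene, stood at 354.3 ± 20.8 TPM and H2afx at 312.9 ± 39.3 TPM; H2afv differed from H1fx by less than the SD of H1fx, and H2afx lay below H1fx by more than either SD. H2afy2, the other macroH2A gene, had 207.6 ± 5.84 TPM and H2afj 80.1 ± 6.11 TPM. The other 5 variant genes, H1fnt, H1foo, H2afb1, H2afb2 and H2afb3, which are known from germ cells, had no counts in any library, and 3 counts would have been 0.109 CPM in the shallowest library.

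**Figure D1:**
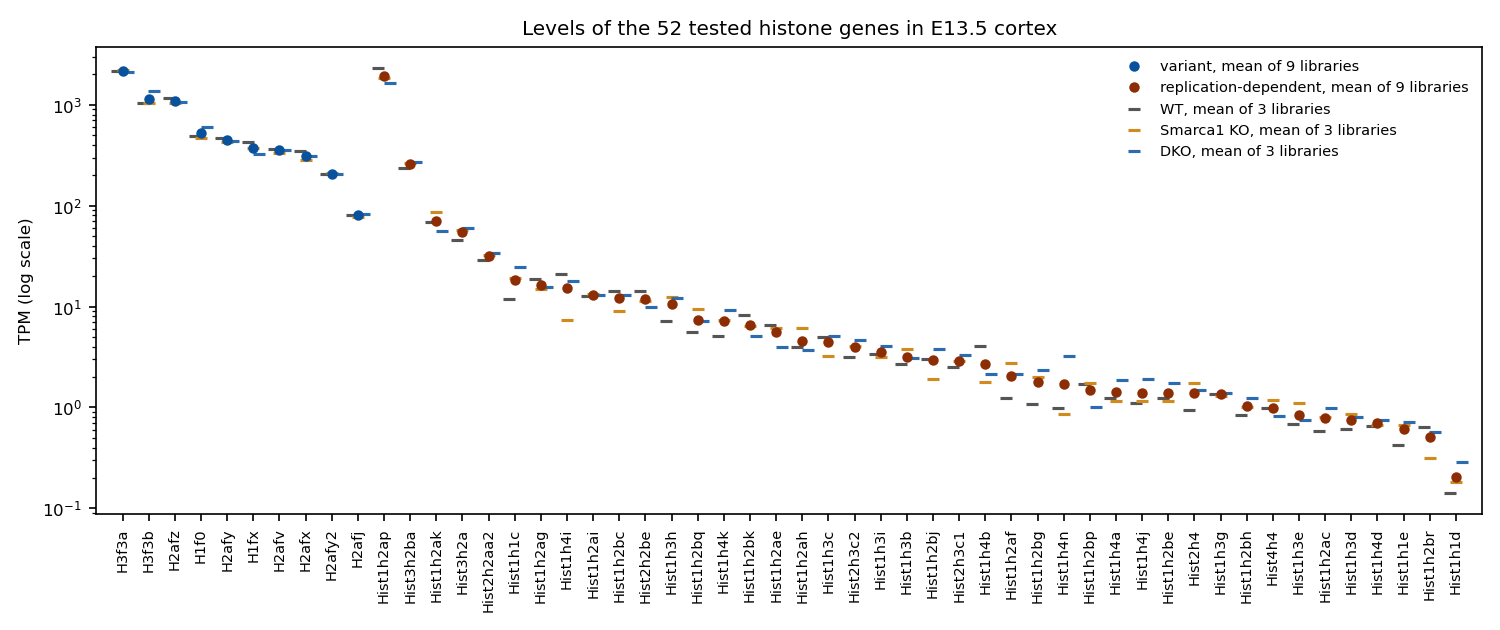
Mean TPM (log scale) of the 52 histone genes that passed the filter on low counts, variants in blue and replication-dependent genes in brown, each point the mean of 9 libraries and each dash the mean of the 3 libraries of a group. The 10 variants lay between 80.1 and 2161.2 TPM, whereas all replication-dependent genes but 5 lay at 18.5 TPM or below and Hist1h2ap reached 1937.5 TPM.

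Most Hist genes were present at low level. Hist1h2ap, an H2A gene of the large cluster on chromosome 13, stood at 1937.5 ± 524 TPM (SD, n = 9), and Hist3h2ba, an H2B gene of the small cluster on chromosome 11, was next at 257.8 ± 22 TPM. Hist1h2ak followed at 70.8 ± 29.6 TPM, Hist3h2a at 54.4 ± 8.62 TPM, Hist2h2aa2 at 31.5 ± 4.0 TPM and Hist1h1c at 18.5 ± 6.18 TPM. Of 67 Hist genes, 21 had a mean of 1 CPM or more and 5 a mean of 10 CPM or more. The filter on low counts let 42 through. Of the other 25, Hist1h2ba, a testis H2B gene, had no counts in any library, and 24 had too few to test, the highest of them Hist2h2bb at 2.27 TPM, Hist1h4h at 1.99 TPM and Hist2h2ab at 1.75 TPM. H2A, H2B, H3 and H4 genes are near copies of each other, which limits how reads can be assigned. The median Hist gene shared 55.2% of its 31-base words with other genes, and Hist1h2ap shared 93.4%, chiefly with Hist1h2ao, Hist1h2ag and Hist1h2ad, whereas the median variant shared 8.8% and H1f0 and H1fx shared none. Single Hist levels, and that of Hist1h2ap above all, are therefore uncertain as to which copy the reads came from.

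The Hist gene with the highest level was 1 that ends at its loop, and the next 2 with a loop ran past it. The 22 genes annotated to end within 100 bases of the loop had a median level of 1.35 TPM, from 0.247 TPM up to 1937.5 TPM for Hist1h2ap. The 21 genes that run over 100 bases past it had a median of 1.03 TPM, with Hist3h2ba and Hist3h2a at the top. The 15 genes with a poly(A) hexamer near their end had a median of 1.99 TPM and the 52 without it 1.19 TPM.

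**Figure D2:**
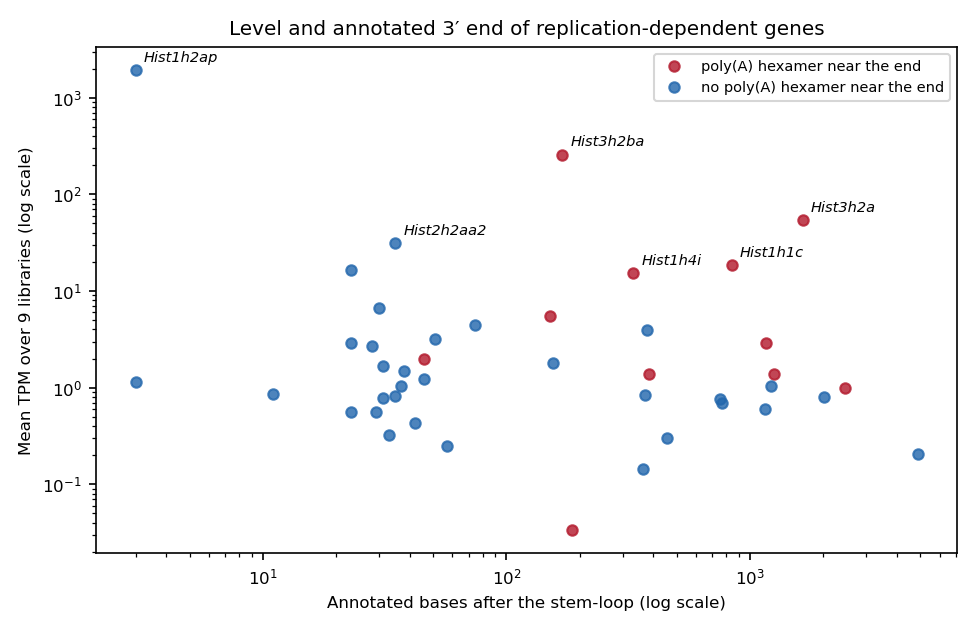
Mean TPM over 9 libraries against the annotated bases after the stem-loop, both on log scales, for the 43 replication-dependent genes with counts and a stem-loop match in their most counted transcript; red points have a poly(A) hexamer near the end. Hist3h2ba, Hist3h2a, Hist1h1c and Hist1h4i, with 15.4 to 257.8 TPM, lay over 100 bases past the loop with a hexamer, and Hist1h2ap at 1937.5 TPM ended 3 bases after it.

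Between groups, few histone genes were called at an adjusted p under 0.05 by edgeR's quasi-likelihood test over 15773 genes. In DKO against Smarca1 KO, 2 of 52 tested members rose, the variants H3f3b and H1f0, and none fell, where 1.73% of all tested genes rose and 2.66% fell. In DKO against WT, H3f3b, H1f0, Hist1h1c and Hist3h2a rose and H1fx fell, 4 and 1 of 52, where 5.61% of all tested genes rose and 6.35% fell. These comparisons share the DKO libraries. In Smarca1 KO against WT no member was called by edgeR, where 0.139% of all tested genes rose and 0.197% fell. At an unadjusted p under 0.05, 4 of the 52 members were higher and 6 lower, beside 18.9% of all tested genes in either direction. DESeq2 called 2 members, Hist1h1c and Hist1h4i, among 701 of 13905 genes. Set against these shares of all genes, the counts among 52 members show nothing particular to histone genes. The median log2 fold change of the 42 tested Hist genes was 0.109 in DKO against Smarca1 KO and 0.268 in DKO against WT, and that of the 10 tested variants was 0.0579 and -0.0263, beside 0.0041 and 0.0078 over all genes tested. All 5 genes lost their call when a score of 4 Y-linked genes was added as a covariate. So did most genes: calls over all genes went from 1887 to 6 in DKO against WT and from 692 to 11 in DKO against Smarca1 KO. The score was -0.114 to -0.051 in the DKO libraries and -0.022 to 0.086 in the other 6, so it and the DKO group cannot be told apart. The count against WT was 2 without WT replicate 1 or 3 or DKO replicate 2 or 3, and 3 without WT replicate 2. It was 9 without Smarca1 KO replicate 3, where 3178 of all 16049 genes tested were called. The count against Smarca1 KO was 1 without Smarca1 KO replicate 1 or DKO replicate 2 or 3. H3f3b was called in each of these fits without a library.

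**Figure D3:**
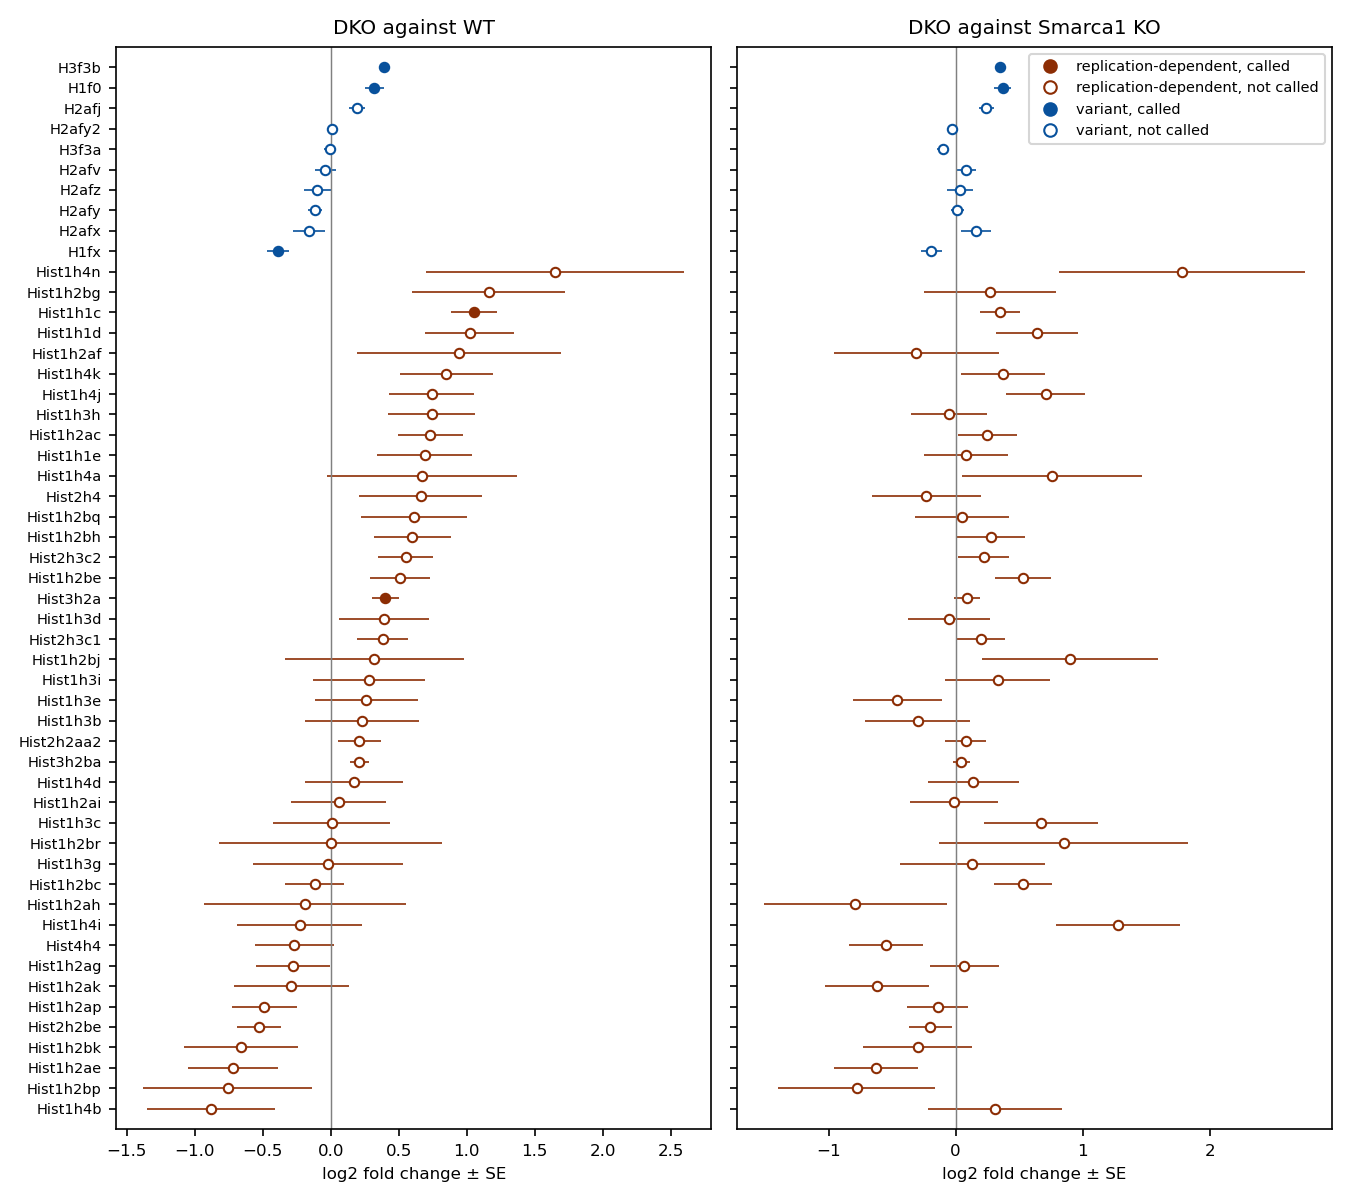
Log2 fold change with its SE for the 52 tested histone genes in DKO against WT (left) and DKO against Smarca1 KO (right), both of which use the same 3 DKO libraries; filled points were called at an adjusted p under 0.05. Variants (blue) lie between -0.39 and 0.39 with short bars, and replication-dependent genes (brown) spread further with longer bars.

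H3f3b and H3f3a encode the same protein, H3.3, which is placed on chromatin outside S phase, at active genes by the HIRA complex and at repeats by ATRX and DAXX. H3f3b (chr11:116021912-116027962, minus strand, GRCm38) had 892.3, 904.5 and 934.2 CPM in the WT libraries. It had 910.6, 969.8 and 924.0 CPM in Smarca1 KO. In DKO it had 1175.0, 1221.5 and 1171.4 CPM. Every DKO library lay above every library of the other groups, which overlapped each other. The log2 fold change was 0.35 ± 0.039 (SE) against Smarca1 KO (adjusted p = 0.00219) and 0.39 ± 0.039 against WT (adjusted p = 0.00104), a fold of 1.27 and 1.31. No left-out library ended either call. H3f3a (chr1:180800832-180813943, minus strand) lay between 877.2 and 917.6 CPM in WT, 904.8 and 1008.3 in Smarca1 KO, and 883.5 and 900.5 in DKO. Its log2 fold change in DKO was -0.01 ± 0.043 against WT (adjusted p = 0.903) and -0.10 ± 0.043 against Smarca1 KO (adjusted p = 0.251), and the DKO libraries lay within the WT range.

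The balance between the 2 H3.3 genes therefore differed in DKO. H3f3b held 50.3% ± 0.203 (SD, n = 3) of their joint counts in WT, 49.4% ± 0.975 in Smarca1 KO and 57.1% ± 0.578 in DKO. The DKO libraries (56.6% to 57.8%) did not overlap the other 6 (48.7% to 50.5%). These count shares carry no correction for transcript length. Per length H3f3a led in every group, with 2137.9 TPM against 1030.4 for H3f3b in WT. In the same order the values were 2234.8 and 1037.0 TPM in Smarca1 KO, and 2110.8 and 1358.4 TPM in DKO. The summed level of the 2 genes was 1809.1 ± 41.3 CPM in WT, 1892.3 ± 77.1 in Smarca1 KO and 2081.8 ± 30.7 in DKO. By transcript, H3f3b-201 held 96.3% of H3f3b counts, between 94.7% and 97.2% in every library. H3f3a was divided among H3f3a-201, H3f3a-205 and H3f3a-207, with 51.5%, 25.7% and 22.2% of its counts. The share of H3f3a-205, whose annotated end is the longest and carries AATAAA, lay between 24.5% and 27.2% in all 9 libraries.

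**Figure D4:**
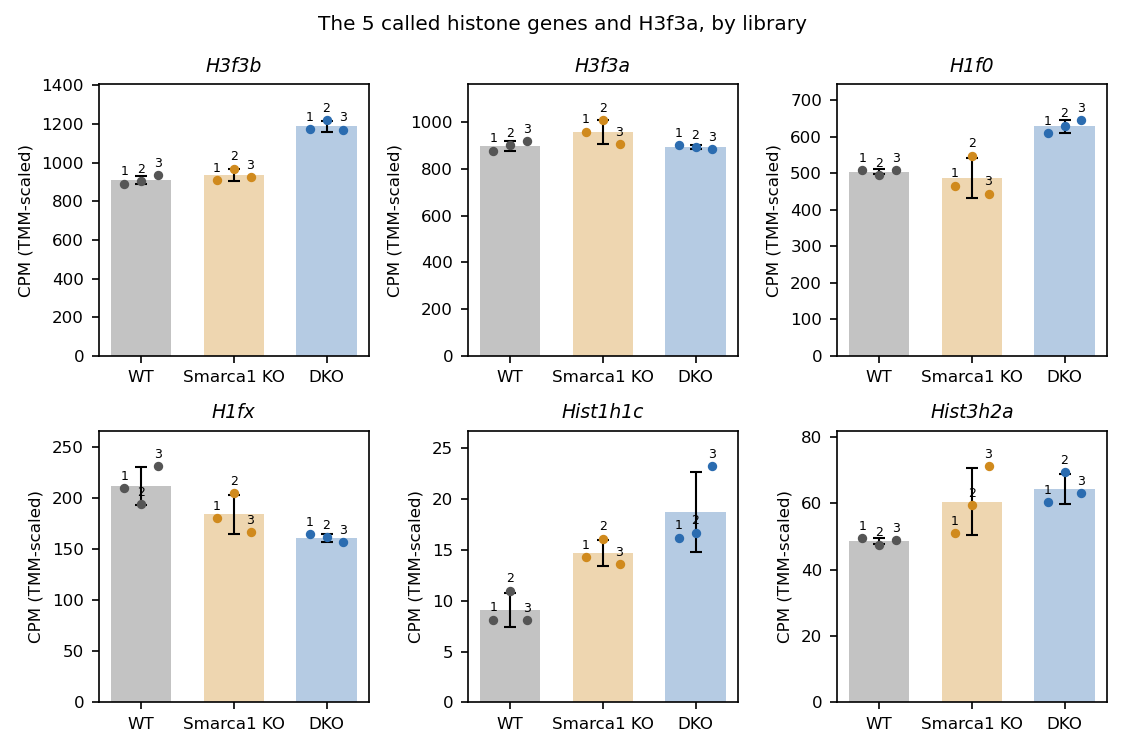
TMM-scaled CPM by library (points, numbered by replicate), with bars for the group mean and error bars for the SD (n = 3), for the 5 called histone genes and H3f3a. In H3f3b and H1f0 the 3 DKO libraries lie above all 6 others, in H1fx below all 6, and in H3f3a among the WT libraries.

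Linker histones bind where DNA enters and leaves the nucleosome. H1f0 (chr15:79028450-79030504, plus strand), the replacement linker histone, had 509.0, 495.1 and 508.7 CPM in WT. The Smarca1 KO libraries had 465.3, 548.0 and 444.1 CPM, and those of DKO 608.9, 629.7 and 644.5 CPM. The DKO libraries lay above the other 6, and the Smarca1 KO libraries were spread around the WT ones. The log2 fold change in DKO was 0.37 ± 0.069 (SE) against Smarca1 KO (adjusted p = 0.0186) and 0.32 ± 0.069 against WT (adjusted p = 0.0209). Without Smarca1 KO replicate 1, DKO replicate 2 or DKO replicate 3 the adjusted p against Smarca1 KO was 0.0568, 0.0699 and 0.076. Without WT replicate 1, 2 or 3, or DKO replicate 2 or 3, the adjusted p against WT was 0.0729 to 0.0866, so the calls for H1f0 needed all of these libraries.

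H1fx (chr6:87980421-87981637, minus strand), the gene of the H1x linker histone, moved the other way. It had 210.1, 194.3 and 231.4 CPM in WT. Smarca1 KO gave 180.9, 205.2 and 167.2 CPM, and DKO gave 164.8, 162.0 and 157.2 CPM. All DKO libraries lay below the rest, and Smarca1 KO overlapped WT. The log2 fold change was -0.39 ± 0.080 (SE) in DKO against WT (adjusted p = 0.0168), and -0.19 ± 0.080 in DKO against Smarca1 KO (adjusted p = 0.235), where it was not called. The WT call was lost without WT replicate 1 or 3 or DKO replicate 2 or 3, with adjusted p from 0.0547 to 0.066.

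Hist1h1c (chr13:23738808-23740367, plus strand), the most abundant of the 6 replication-dependent H1 genes in these libraries, had the largest fold among the 5 called members. It had 8.14, 11 and 8.07 CPM in WT. For Smarca1 KO the values were 14.3, 16.1 and 13.6 CPM, and for DKO 16.2, 16.7 and 23.2 CPM. Every Smarca1 KO and DKO library lay above every WT library, and the lowest DKO library, at 16.2 CPM, was close to the highest Smarca1 KO library, at 16.1 CPM. The log2 fold change was 1.05 ± 0.17 (SE) in DKO against WT, a fold of 2.07 (adjusted p = 0.00634), which held without any single library. It was 0.70 ± 0.17 in Smarca1 KO against WT (adjusted p = 0.11), not called by edgeR and called by DESeq2 (adjusted p = 0.00558), and 0.35 ± 0.16 in DKO against Smarca1 KO (adjusted p = 0.287).

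The replication-dependent H1 genes together, a quantity to which Hist1h1c gives most counts, summed to 10.3 ± 1.94 CPM (SD, n = 3) in WT, 16.4 ± 1.57 in Smarca1 KO and 20.9 ± 4.1 in DKO. Hist1h1d, whose promoter is shown above, had a log2 fold change of 1.02 in DKO against WT (adjusted p = 0.0704) and Hist1h1e 0.69 (adjusted p = 0.211), and neither was called. Hist1h1a, Hist1h1b and the testis gene Hist1h1t had too few counts to test. Within all H1 counts, H1f0 held 69.4% ± 1.38 in WT, 70.7% ± 0.41 in Smarca1 KO and 77.5% ± 0.521 in DKO. H1fx held 29.1% ± 1.62, 26.9% ± 0.394 and 19.9% ± 0.908 in the same order, and Hist1h1c 1.25% ± 0.268, 2.14% ± 0.0483 and 2.3% ± 0.432. By counts, H1f0 thus held most of the H1 pool read in poly(A) RNA in every group. Its share was highest in DKO and that of H1fx lowest. Count shares carry no correction for transcript length, and H1f0 is 2055 bases long against 1217 for H1fx. Per length the 2 genes lay closer, with H1f0 at 488.1 TPM and H1fx at 424.2 TPM in WT. The values were 467.5 and 371.1 TPM in Smarca1 KO, and 604.6 and 325.6 TPM in DKO.

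Among the H2A variants none was called by edgeR; at an unadjusted p under 0.05 stood H2afj in both DKO comparisons, H2afy in both comparisons with WT and H2afx in Smarca1 KO against WT. H2afz had 502.9 to 538.2 CPM in WT, 397.2 to 511.1 in Smarca1 KO and 446.8 to 547.8 in DKO, so all 3 groups overlapped. Its share of the H2A.Z counts, with H2afv as the other gene, lay between 74.2% and 76.7% in every library. H2afx had 208.6 to 225.5 CPM in WT, 137.6 to 205.9 in Smarca1 KO and 191.9 to 202.6 in DKO. In Smarca1 KO against WT its p was the smallest of the variants, with a log2 fold change of -0.31 ± 0.12 (SE) and an adjusted p of 0.21. The lowest H2afx and H2afz values were both in Smarca1 KO replicate 3, the library with the lowest S phase sum, whose part in them was not tested. H2afj, an H2A variant gene, had 32.4 to 33.3 CPM in WT, 30.6 to 32.8 in Smarca1 KO and 35.6 to 40.4 in DKO. The DKO libraries lay above the rest, with a log2 fold change of 0.24 against Smarca1 KO (adjusted p = 0.0531) and 0.19 against WT (adjusted p = 0.0591), short of a call by edgeR, while DESeq2 called it in both. The macroH2A gene H2afy had a log2 fold change of -0.12 in DKO against WT (adjusted p = 0.15) and H2afy2 0.01 (adjusted p = 0.876), and H2afy2 stayed between 225.1 and 240.7 CPM throughout.

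The core Hist genes gave 1 call. Hist3h2a (chr11:58954685-58956830, plus strand), an H2A gene with a long annotated end and a poly(A) hexamer, had 49.5, 47.5 and 48.9 CPM in WT. In Smarca1 KO the values were 50.9, 59.4 and 71.1 CPM, and in DKO 60.3, 69.3 and 63.1 CPM. All 6 Smarca1 KO and DKO libraries lay above WT, and Smarca1 KO and DKO overlapped. The log2 fold change in DKO against WT was 0.40 ± 0.10 (SE, adjusted p = 0.0371), lost without any 1 WT library or without DKO replicate 2 or 3 (adjusted p = 0.0969 to 0.127). Against Smarca1 KO it was 0.09 ± 0.10 (adjusted p = 0.723). Its neighbour Hist3h2ba (chr11:58948920-58949533, plus strand) had 50.8 to 58.2 CPM in WT, 58.8 to 65.2 in Smarca1 KO and 58.7 to 67.1 in DKO, with a log2 fold change of 0.21 ± 0.069 in DKO against WT (adjusted p = 0.0733). The pair, which carries the poly(A) hexamer, summed to 103.1 ± 4.46 CPM (SD, n = 3) in WT and 127.3 ± 5.45 in DKO, and in Smarca1 KO the libraries had 109.7, 118.8 and 136.3 CPM.

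By family, the H2A sum was set by Hist1h2ap. Hist1h2ap (chr13:21833026-21833507, minus strand) had 310.7, 308.0 and 376.4 CPM in WT. The values were 385.2, 221.3 and 172.0 CPM in Smarca1 KO, against 250.7, 224.3 and 233.9 CPM in DKO. The DKO libraries lay below WT, while Smarca1 KO held both the highest and the lowest library of the 9. The log2 fold change was -0.49 ± 0.24 (SE) in DKO against WT (adjusted p = 0.194) and -0.35 ± 0.24 in Smarca1 KO against WT (adjusted p = 0.439). Without Smarca1 KO replicate 1, the library high in meninges markers, the gene was called lower in both (-0.49, adjusted p = 0.0241, and -0.76, adjusted p = 0.0497). Hist1h2ap held 44.8% to 66.6% of all replication-dependent counts. With it, these genes summed to 517.2 ± 46.6 CPM (SD, n = 3) in WT, 463.3 ± 102 in Smarca1 KO and 452.3 ± 13.9 in DKO. Without it, the other 66 summed to 185.6 ± 8.66 CPM in WT, 203.8 ± 9.65 in Smarca1 KO and 216.0 ± 1.26 in DKO, so that the order of the groups turned around. Among these 66, Hist3h2a and Hist3h2ba together had 103.1, 121.6 and 127.3 CPM in the same order of groups, and Hist1h1c 9.06, 14.7 and 18.7. The 10 genes of the Hist2 cluster went the other way, with 29.4, 27.2 and 25.9 CPM. The turned order therefore does not describe the 66 genes as a body. Hist2h2be, an H2B gene singled out after its values were seen, shares only 2.8% of its 31-base words with other genes. Its values were 19.1, 18.1 and 20.3 CPM in WT, 12.2, 15.2 and 18.6 in Smarca1 KO, and 16.2, 12.2 and 11.4 in DKO, with every DKO library below WT. In DKO against WT its log2 fold change was -0.53 (adjusted p = 0.0651), not called by edgeR and called lower by DESeq2.

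The other families were small. H2B genes summed to 87.2 ± 5.94 CPM in WT, 87.4 ± 5.3 in Smarca1 KO and 90.8 ± 4.87 in DKO, mostly Hist3h2ba. H3 genes summed to 8.02 ± 0.676, 8.87 ± 0.553 and 9.91 ± 0.154 CPM in the same order, which is far under the H3.3 genes. H4 genes summed to 10.7 ± 4.49, 7.5 ± 1.36 and 10.8 ± 2.41 CPM, and no variant gene makes H4 under the symbol rule, so these are all the H4 counts of the members. Hist1h2ak, an H2A gene, had 5.3 to 11.3 CPM in WT, 6.59 to 13 in Smarca1 KO and 3.92 to 10.2 in DKO, with wide overlap. Hist2h2aa2 had 3.85 to 6.01 CPM in WT, 4.92 to 5.77 in Smarca1 KO and 5.47 to 5.97 in DKO, and all of its 31-base words occur in other genes.

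Some Hist genes differed more within groups than between them. Hist1h4i (chr13:22040636-22041362, minus strand), an H4 gene that runs 330 bases past its loop, had 8.02, 2.05 and 8.24 CPM in WT. The 3 Smarca1 KO libraries had 2.03, 2.42 and 2.0 CPM, and those of DKO 2.84, 6.05 and 6.73 CPM. WT replicate 2 and DKO replicate 1 thus sat with the Smarca1 KO libraries, away from their own groups. Its log2 fold change in DKO against Smarca1 KO, 1.28 ± 0.49 (SE, adjusted p = 0.196), had the smallest p of the Hist genes there, and in Smarca1 KO against WT it was -1.51 ± 0.49 (adjusted p = 0.171; called by DESeq2, adjusted p = 0.0278). Hist1h2bc and Hist1h3c, which were singled out after their values were seen, were high in the same 4 libraries. Hist1h2bc had 7.78, 5.51 and 7.78 CPM in WT, 4.7, 4.57 and 4.19 in Smarca1 KO, and 4.27, 7.09 and 8.04 in DKO. Hist1h3c had 1.46, 0.416 and 1.6 CPM in WT, 0.52, 0.921 and 0.801 in Smarca1 KO, and 0.881, 1.46 and 1.2 in DKO. The 3 genes lie in the same cluster on chromosome 13 and share libraries, and what sets these 4 libraries apart was not tested.

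**Figure D5:**
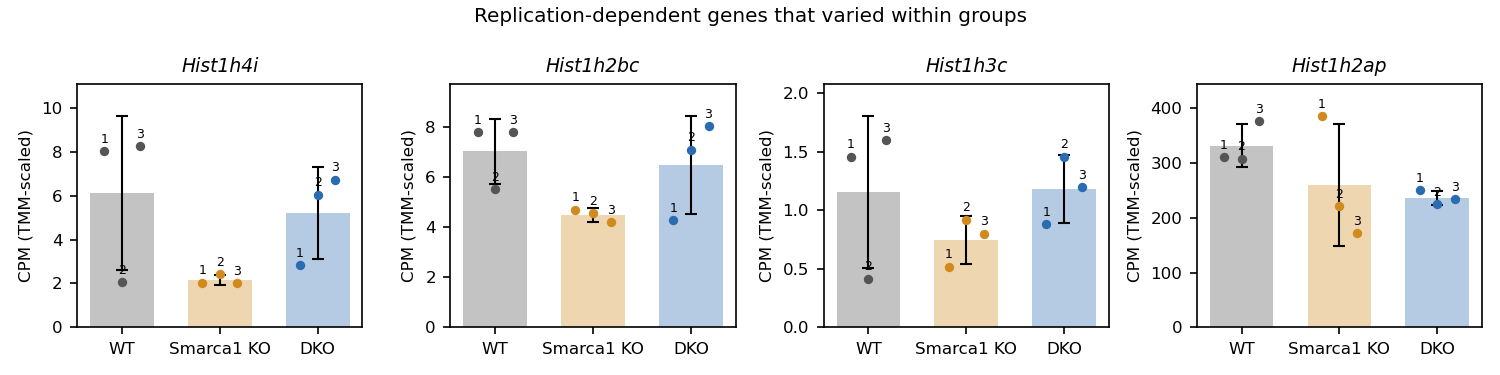
TMM-scaled CPM by library (points, numbered by replicate) with group means as bars and the SD (n = 3) as error bars, for 4 replication-dependent genes. WT replicates 1 and 3 and DKO replicates 2 and 3 are the 4 highest libraries for Hist1h4i, and Hist1h2ap runs from 172.0 to 385.2 CPM within Smarca1 KO alone.

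Genes that act on histone mRNA and protein were read from lists that, like the members, were chosen with earlier results of these data known. Over all genes tested, 5.61% rose and 6.35% fell in DKO against WT at an adjusted p under 0.05. An unadjusted p under 0.05 was reached by 31% of all genes tested in that comparison. It was reached by 18.4% in DKO against Smarca1 KO and by 18.9% in Smarca1 KO against WT. Of 21 genes of histone mRNA 3′ end processing and turnover, none was called in DKO against Smarca1 KO or in Smarca1 KO against WT by edgeR (1 and 8 at an unadjusted p under 0.05), where Eri1, the exonuclease that trims histone mRNA ends, had the smallest p (log2 fold change 0.21, adjusted p = 0.0695, and -0.22, adjusted p = 0.126); DESeq2 called 1 and 3, Eri1 among them in each. In DKO against WT 2 of the 21 fell: Npat, the activator of replication-dependent histone transcription, by 0.20 on the log2 scale (adjusted p = 0.0434), and Cpsf3, the endonuclease that cuts both histone and polyadenylated pre-mRNA, by 0.16 (adjusted p = 0.0349). Neither was called without any 1 WT library or without DKO replicate 2 or 3. Without Smarca1 KO replicate 3, 7 of the list were called, and 3178 of all 16049 genes tested. Over the 21 genes the median log2 fold change against WT was -0.0569. Slbp had 87.1 to 95.7 CPM in WT, 68.6 to 82.5 in Smarca1 KO and 75.8 to 84.2 in DKO.

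Of 23 histone chaperone genes, Spty2d1, a chaperone of H3 and H4, fell in both DKO comparisons. It had 30.2, 28.1 and 29.0 CPM in WT, 27.3, 26.9 and 23.5 in Smarca1 KO, and 19.6, 19.3 and 21.2 in DKO, and the DKO libraries lay below the rest. Its log2 fold change was -0.37 ± 0.073 (SE) against Smarca1 KO (adjusted p = 0.0225) and -0.54 ± 0.073 against WT (adjusted p = 0.00353). The call against WT held without any single library, and that against Smarca1 KO was lost without Smarca1 KO replicate 1 or 2 or DKO replicate 1 or 2. Against WT 5 more chaperone genes fell: Hira by 0.14 on the log2 scale (adjusted p = 0.0304), Ubn2 by 0.17 (adjusted p = 0.0477), Daxx by 0.15 (adjusted p = 0.0449), Atrx by 0.17 (adjusted p = 0.0381) and Supt16 by 0.24 (adjusted p = 0.0452). Hira and Ubn2 belong to the HIRA complex and Daxx with Atrx to the other deposition route of H3.3, the histone whose gene H3f3b rose in the same comparison, and Supt16 is a subunit of FACT. The 6 calls became 1 or 2 without a WT library or without DKO replicate 2 or 3. They became 12 without Smarca1 KO replicate 3, where 3178 of all 16049 genes tested were called. None of the 5 was called in DKO against Smarca1 KO. The list's median log2 fold change in DKO against WT was -0.128 beside 0.0078 over all genes tested. In Smarca1 KO against WT no chaperone was called by edgeR and 3 by DESeq2 (9 at an unadjusted p under 0.05), and Chaf1a, a subunit of the chaperone that deposits new H3 and H4 at replication, had the smallest p (-0.40, adjusted p = 0.0833).

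None of the 12 genes of H2A.Z exchange was called by edgeR in any of the 3 comparisons (1, 3 and 2 at an unadjusted p under 0.05), and DESeq2 called 0, 1 and 2. Srcap, an ATPase of H2A.Z exchange, had a log2 fold change of 0.15 in DKO against Smarca1 KO (adjusted p = 0.259). Ep400, the other ATPase, had -0.13 in DKO against WT (adjusted p = 0.0742) and -0.19 in Smarca1 KO against WT (adjusted p = 0.109). Cenpa, which encodes the centromeric H3 and lies outside the symbol rule, had 112.6 to 118.3 CPM in WT, 71.9 to 107.1 in Smarca1 KO and 97.6 to 119.4 in DKO, and was not called. Of 29 S phase and replication genes, 2 fell in DKO against WT, where 6.35% of all tested genes fell. These were Tyms, by 0.38 on the log2 scale (adjusted p = 0.0368), and Rfc3, by 0.20 (adjusted p = 0.0495). Both calls were lost without any 1 WT library or without DKO replicate 2 or 3. Without Smarca1 KO replicate 3, 13 of the list were called, and 3178 of all 16049 genes tested. None of the 29 was called by edgeR in the other comparisons, and DESeq2 called 1 and 5. At an unadjusted p under 0.05 stood 2 in DKO against Smarca1 KO and 18 in Smarca1 KO against WT. The shares of all genes tested were 18.4% and 18.9%. Mcm6, a helicase subunit, had the smallest p in DKO against Smarca1 KO (0.27, adjusted p = 0.104), and Mcm2 had -0.39 in Smarca1 KO against WT (adjusted p = 0.137). The part of S phase cells in the levels of the Hist genes was not tested.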

How the data were processed

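RNA from E13.5 cortex was made into stranded mRNA libraries, per the labels' protocols. The authors quantified transcripts with Salmon 1.4.0, with mm10 and DESeq2 also named, per the submitters' processing notes; the index and library type were not stated. The deposited tables hold estimated counts and TPM for 116546 transcripts, with deposited lengths and effective lengths; 115977 matched GENCODE M21, and the 569 others held 0.104% to 0.116% of reads and were left out. Estimated counts were summed to genes and rounded. Depth ranged from 27466046 to 46007527 counts. Each SD is taken over libraries, and each SE rests on the fitted spread between libraries.

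The test was edgeR 4.0.16 (R 4.3.3), glmQLFTest on 1 fit of group means over 9 libraries with TMM scaling and filterByExpr, Benjamini-Hochberg adjusted over 15773 genes, called at adjusted p under 0.05. SE is the absolute log2 fold change divided by the root of F. CPM is TMM-scaled. Over all genes the fitted coefficient of variation between libraries was 10.2%. The script was tested on simulated data.

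The members and lists were chosen with earlier results of these data known. Named were all called members, the 6 highest genes by TPM of each class, the smallest p of a class without a call, the highest genes that failed the filter, and up to 4 called genes per partner list; Ubn2, Supt16, H2afj, H2afv, H2afy2, Slbp and the Hist1h1 genes were added as members of the families described. Sequences are from GENCODE M21 and RefSeq. Alternatives were DESeq2 1.42.0, other scalings, filters, offsets, covariates and left-out libraries. Microglia, blood, endothelium and meninges markers were summed; blood markers lay between 879.5 and 1869.7 CPM and endothelium markers between 166.9 and 269.4 CPM. Of 11 listed RNAs without a poly(A) tail other than histone mRNA, 0 were found by symbol among the genes analysed, so they could not check the poly(A) selection. A cortex marker is not reported here.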

Additional observations from a re-analysis of the deposited data

How the results depend on the processing

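With the same test over 3 other scalings or offsets and 2 other filters, the same members were called again in both DKO comparisons, with H2afj added in DKO against Smarca1 KO under the filter at 1 CPM. The count in DKO against Smarca1 KO, 2, was 1 in a fit of only the 2 groups, 0 with the Y-linked covariate, 1 without the 2 libraries highest in meninges markers (chosen after seeing the data), and 1 to 2 with each library left out. The count in DKO against WT, 5, was 10 in a fit of only the 2 groups, 0 with the Y-linked covariate, 9 without those 2 libraries and 2 to 9 with each library left out; without Smarca1 KO replicate 3 the 9 held all 5. The count in Smarca1 KO against WT, 0, was 2 with DESeq2, 2 without those 2 libraries and 0 to 1 with each library left out. H3f3b and Hist1h1c each kept their call against WT in 19 of 20 alternatives, and lost it with the Y-linked covariate (adjusted p = 0.267 and 0.462). The replicate block left the counts of histone genes at 2, 5 and 0. In DKO against WT it moved the chaperone calls from 6 to 3 (without Hira, Daxx and Atrx), the 3′ end processing calls from 2 to 0 and the S phase calls from 2 to 1 (without Rfc3). Effective length offsets gave 3 chaperone calls there (Nap1l1, Spty2d1 and Supt16), 2 for 3′ end processing (Lsm1 and Npat) and 0 for S phase. Correlations of same-numbered libraries ran from -0.11 to 0.442, with 0.442 and 0.185 for replicates 1 and 3 of DKO against Smarca1 KO; not every pair deviated together, so the numbers were not taken to pair the libraries.

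The log2 ratio of summed replication-dependent genes, -0.194 in DKO against WT, was -0.332 in TPM, 0.219 without Hist1h2ap, and -0.238 to -0.117 with each library left out. In Smarca1 KO against WT it was -0.159, and 0.136 without that gene, and in DKO against Smarca1 KO it ran from -0.154 to 0.156 with each library left out. The summed variants, 0.124 in DKO against Smarca1 KO, gave 0.046 without H3f3b, their highest gene in CPM, and in DKO against WT, 0.091, gave 0.035 in TPM and -0.008 without it.

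Some values not called by the main test changed sign. With the Y-linked covariate the log2 fold change in DKO against Smarca1 KO became -0.168 for Hist3h2a, 0.547 for Hist1h2ap, -0.105 for Hist3h2ba, 0.443 for Hist1h2ak and -0.065 for Hist2h2aa2, and in DKO against WT 0.151 for H2afx, 0.188 for Hist1h2ap, 0.853 for Hist1h2ak, 0.076 for H3f3a and 0.112 for H2afz. Without the 2 libraries highest in meninges markers it became 0.062 for Hist1h4i (DKO against WT), and, in DKO against Smarca1 KO, 0.221 for Hist1h2ap, -0.029 for Hist3h2ba, -0.02 for H2afz and -0.004 for H2afy. With each library left out in turn, Hist1h4i ran from -0.644 to 0.063 and Hist1h2ak from -0.861 to 0.091 in DKO against WT, and H1f0 from -0.153 to 0.006 and Hist2h2aa2 from -0.027 to 0.277 in Smarca1 KO against WT. In DKO against Smarca1 KO, Hist3h2a ran from -0.023 to 0.219, Hist1h2ap from -0.363 to 0.263, Hist3h2ba from 0 to 0.093, H2afz from -0.073 to 0.102 and H2afy from -0.042 to 0.057. The cause was not tested. Of the partner lists, the Y-linked covariate left no call in any comparison.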
